A study of Mus musculus with 2 samples.

Results

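The 10 genes described here encode repressors of the embryonic and foetal globin genes, the partners that those repressors recruit, and regulators that lie upstream of them: Bcl11a, Zbtb7a, Sox6, Klf3, Myb, Hbs1l, Nr2c1, Nr2c2, Chd4 and Mbd2. They were taken by their GENCODE M21 symbol from the gene and transcript quantifications of mouse foetal liver, and all 10 were found among 55536 annotated genes. The tissue was liver of B6NCrl embryos at 12.5 days of development, with male and female embryos pooled and no genotype or treatment given. Livers of 120 embryos gave replicate 1 and livers of 88 embryos gave replicate 2, and polyadenylated RNA was sequenced from 10 ng of each with synthetic spike-in RNAs added. There was thus a single group, so no condition could be compared: the comparisons below are between genes, between transcripts, between the 2 pools and between 2 annotations of the same reads. Levels are in TPM, a unit corrected for length, in which each count is divided by the effective length of the gene and then by the sum of such values over the library, spike-ins included.

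At this stage the mouse liver is the main site at which definitive red cells form, and these switch off the embryonic beta-like globin genes that the earlier, yolk sac red cells used. Bcl11a and Zbtb7a are zinc finger proteins that bind at the globin genes and silence the embryonic ones in mouse and the foetal ones in human, Sox6 binds there together with Bcl11a, and Klf3 competes for the CACCC-type sites of the activator Klf1. These factors act largely through corepressors, among them the NuRD complex. NuRD joins a chromatin remodelling ATPase (Chd4) and histone deacetylases to methyl-CpG binding proteins such as Mbd2. Nr2c1 and Nr2c2, also called TR2 and TR4, are orphan nuclear receptors that bind direct repeats in embryonic globin promoters. Myb keeps red cell progenitors dividing, and Hbs1l is its neighbour in the genome; variants between the pair are associated with foetal haemoglobin in human.

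The summed expected counts, spike-ins included, were 38293265 in replicate 1 and 35399872 in replicate 2. The 6 red cell markers all reached 100 TPM and summed to 2420 to 2535 TPM in the 2 libraries, led by Slc4a1 and Alas2. The 5 hepatoblast markers summed to 6600 to 6782 TPM, led by Afp and Alb, and the 5 stem and progenitor markers to 89.9 to 95.4 TPM, led by Cd34 and Kit. Lymphoid markers (Cd79b and Vpreb1 highest) reached 1 TPM for 1 of 6 genes and neural markers (Map2 and Stmn2 highest) for 1 of 5. Macrophage (C1qb and C1qc highest), granulocyte (S100a8 and Mpo), megakaryocyte (Pf4 and Ppbp), endothelial (Egfl7 and Stab2) and mesenchymal (Col3a1 and Col1a1) markers were all at 1 TPM or more. The liver was therefore measured as a mixture, in which fewer cells of a type and less RNA per cell cannot be told apart, and the part of each cell type in a gene's level was not tested. Embryonic genes (Hbb-y, Hbb-bh1 and Hbb-bh2) held 9.43% and 9.94% of the TPM of the beta-like globins in replicate 1 and replicate 2, and the adult Hbb-bs and Hbb-bt held the rest.

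All 10 genes were expressed, and 8 of 10 averaged 10 TPM or more, against 32.1% of the 22028 protein-coding genes. None reached 100 TPM, and all 10 reached 1 TPM, against 54.3% of protein-coding genes. Their median was 38.9 ± 0.590 TPM (SD, n = 2), and their expected counts ran from 320 for Nr2c1 to 6019 for Chd4 in a library. By mean TPM the order was Klf3, Hbs1l, Zbtb7a, Sox6, Bcl11a, Chd4, Myb, Mbd2, Nr2c2 and Nr2c1. Of the 9 neighbouring pairs in that order, 7 were apart by more than the summed SDs with no overlap of the libraries; Klf3 with Hbs1l and Sox6 with Bcl11a were not.

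**Figure D1:**
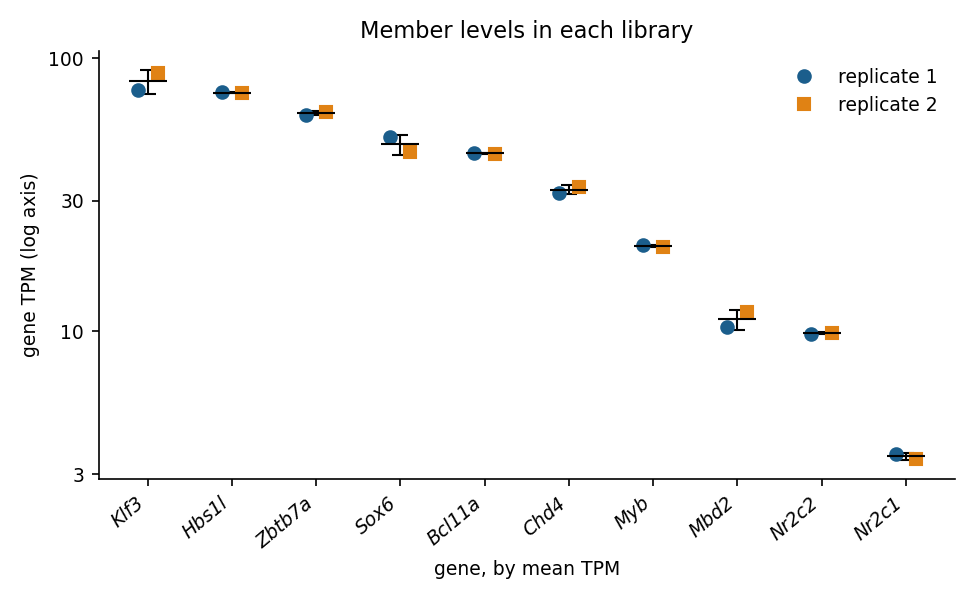
Gene TPM (log axis) of the 10 genes in replicate 1 (circles) and replicate 2 (squares), with the mean and SD of the 2 libraries as bars, ordered by mean. The levels span 3.49 TPM for Nr2c1 to 82.2 TPM for Klf3, and the libraries lie farthest apart for Klf3 and Sox6.

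Bcl11a (ENSMUSG00000000861.15, mm10 chr11:24078056-24174123, plus strand) was at 44.8 TPM in replicate 1 and 44.7 TPM in replicate 2, above 88.1% of protein-coding genes. The libraries differed by less for Bcl11a than for any other of the 10 genes on the TPM scale, with an SD of 0.0636 TPM. Zbtb7a (ENSMUSG00000035011.15, chr10:81135220-81152995, plus strand) was at 62.1 and 63.6 TPM, 1.39 and 1.42 times Bcl11a in replicate 1 and replicate 2. Sox6 (ENSMUSG00000051910.13, chr7:115470872-116038796, minus strand) was at 51.3 and 45.4 TPM. Klf3 (ENSMUSG00000029178.14, chr5:64803388-64832901, plus strand) was at 76.5 and 87.9 TPM, the highest of the 10 genes. The levels of Sox6 and Klf3 depended most on which transcripts were counted.

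The deposited transcripts of each gene were sorted into complete coding transcripts, coding transcripts annotated as incomplete at an end, retained intron transcripts and other non-coding ones. For the 6609 protein-coding genes at 10 TPM or more with several transcripts, complete coding transcripts held a median of 86.3% of the TPM. Among the 10 genes that share ran from 24.7 ± 3.44% for Sox6 and 27.0 ± 4.95% for Klf3 to 98.9 ± 0.672% for Zbtb7a and 100% for Nr2c1 (SD, n = 2). It was 43.9 ± 1.84% for Nr2c2, 73.1 ± 3.08% for Mbd2, 82.4 ± 5.98% for Chd4 and 85.3 ± 0.542% for Bcl11a. The transcript with the most TPM was not a complete coding one for 2 of 10 genes, Sox6 and Klf3, against 12.1% of the 6609 genes. By expected counts, which are not divided by length, complete coding transcripts held 75.8 ± 2.83% for Sox6 and 55.1 ± 2.71% for Klf3, and led both genes.

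**Figure D2:**
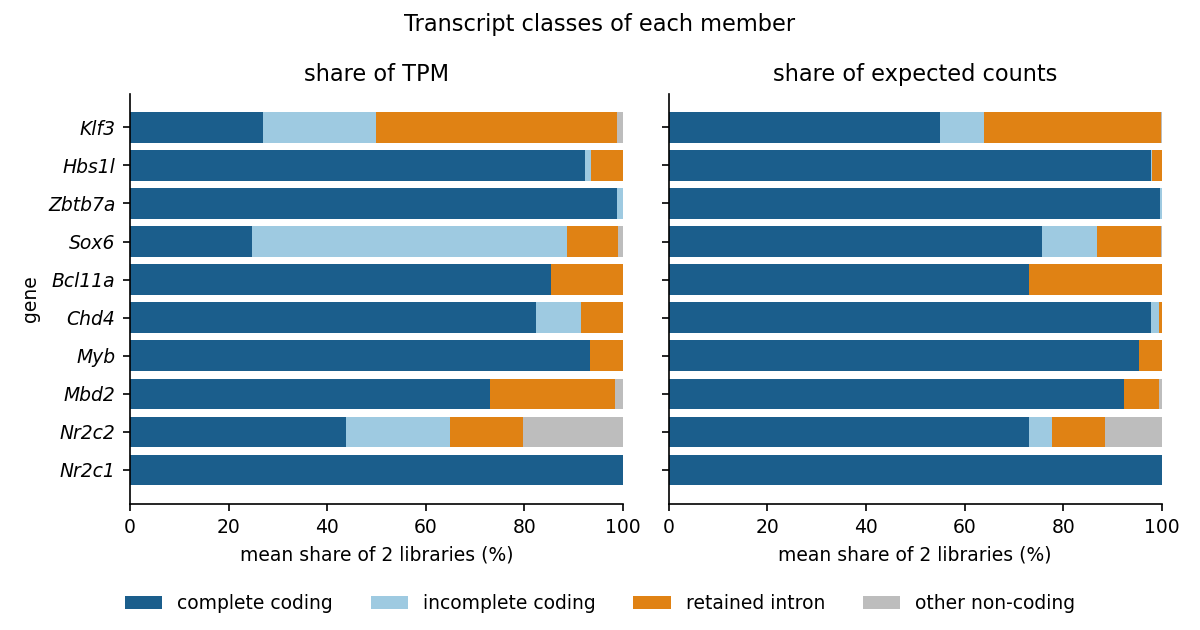
Mean share (%) of 4 transcript classes in each gene over the 2 libraries, by TPM on the left and by expected counts on the right, with genes in order of mean TPM. The complete coding class (dark blue) of Sox6 covers 24.7% by TPM and 75.8% by expected counts, the largest gap among the 10 genes.

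Sox6 shows how short models weigh in TPM. Its leading transcript, Sox6-211, is annotated as 448 bases long, covers 3 exons and has an incomplete coding region. It was at 21.8 TPM in replicate 1 and 15.7 TPM in replicate 2 on only 248 and 166 expected counts. Sox6-207, 331 bases long and also incomplete, was at 12.7 and 11.8 TPM on 96.0 and 82.6 expected counts. Together these 2 fragments held 67.2% and 60.6% of the gene's TPM but 12.8% and 9.55% of its expected counts. The full-length Sox6-210, 8668 bases long, was at 4.98 and 5.68 TPM on 1393 and 1471 expected counts, the most of any Sox6 transcript. Complete coding transcripts alone put Sox6 at 11.4 and 12.3 TPM, which moves it to rank 7 of 10.

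The annotation matters for the same gene. Sox6 has 16 transcripts in M21 and 5 in the earlier GENCODE M4, which lacks Sox6-211, Sox6-207 and Sox6-210. It was at 51.3 and 45.4 TPM under M21, against 17.5 and 17.8 TPM under M4, in replicate 1 and replicate 2. Its expected counts were 2691 and 2604 under M21, against 2384 and 2353 under M4, a ratio of 1.13 and 1.11. Its TPM under M21 was 2.92 and 2.55 times that under M4, while its effective length under M21 was 1607 and 1899 bases, against 4319 and 4535 bases under M4. On the log2(TPM + 1) scale the smaller of the 2 differences was 1.30. Sox6 was the only one of the 10 genes to pass 1.5-fold in both libraries, and it was higher under M21, as were 4% of 13235 genes compared (5.51% passed in either direction, 1.51% lower under M21). The same reads lie behind both values, so no test applies.

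Klf3 came next. It was at 76.5 and 87.9 TPM under M21, against 51.9 and 55.3 TPM under M4, a log2 difference of 0.55 in replicate 1 and 0.66 in replicate 2, of which only the second passes 1.5-fold. Its expected counts were 4845 and 4655 under M21, against 3523 and 3501 under M4, so that for Klf3 reads were also added. The 7 transcripts that only M21 holds carried 53.1 and 67.2 TPM. The largest was Klf3-208, a retained intron transcript of 1026 bases, at 30.5 and 37.8 TPM, followed by Klf3-206, an incomplete coding one of 809 bases, at 14.4 and 21.3 TPM. The full-length Klf3-201, 5221 bases, was at 13.8 and 14.1 TPM and held 47.6% and 47.0% of the expected counts. For the other 8 genes the log2 difference between annotations stayed within -0.08 and 0.13 in both libraries, with the highest values for Nr2c2 (0.13 and 0.12) and Hbs1l (0.09 and 0.09).

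Counted over complete coding transcripts alone, the order became Hbs1l (69.0 ± 0.346 TPM), Zbtb7a (62.1 ± 1.46), Bcl11a (38.2 ± 0.297), Chd4 (27.1 ± 0.940), Klf3 (22.0 ± 1.88), Myb (19.1 ± 0.0566), Sox6 (11.9 ± 0.629), Mbd2 (8.11 ± 1.02), Nr2c2 (4.32 ± 0.212) and Nr2c1 (3.49 ± 0.0919; SD, n = 2 throughout). A measure that uses no transcript assignment, expected counts per kilobase of the gene's merged exons, scaled to the same total as TPM, gave Hbs1l 57.4, Zbtb7a 47.1, Chd4 42.6, Klf3 25.5, Bcl11a 20.1, Myb 14.7, Sox6 10.8, Mbd2 9.54, Nr2c2 5.28 and Nr2c1 4.46. Merged exons count every annotated base of a gene, used or not, so this measure lowers genes with many alternative ends. Hbs1l and Zbtb7a led on both, Nr2c2 and Nr2c1 were last on all measures, and Klf3 and Sox6 lost their places at the top on both. These 2 measures were chosen after the data were seen.

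**Figure D3:**
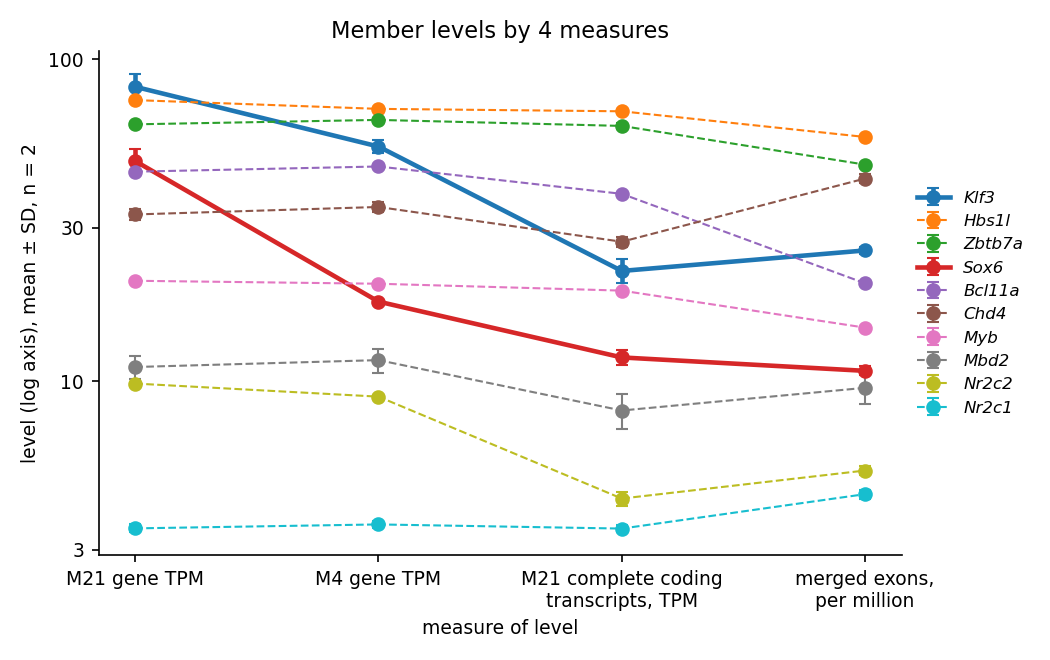
Level (log axis, mean ± SD, n = 2) of each gene by M21 gene TPM, M4 gene TPM, TPM of M21 complete coding transcripts, and expected counts per kilobase of merged exons, scaled to the total of TPM; solid lines mark Klf3 and Sox6. Sox6 lies at 48.3 on the first measure and at 10.8 on the last, and Klf3 at 82.2 and 25.5.

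Every one of the 10 genes had at least 2 transcripts at 10% or more of its TPM in both libraries, against 60% of the 6609 genes. By shares of expected counts 7 of 10 did so, and with M4 9 of 10. The 60% is for shares of TPM with M21, and no share over all genes is given for counts or for M4. Nr2c1 and Nr2c2 lie below the 10 TPM that the 6609 genes reach. The leading transcript held a median of 55.4 ± 0.587% of a gene's TPM. The division of reads among overlapping transcripts is an estimate, and the quantifications hold no counts of reads across single junctions, so the shares below are of whole annotated transcripts and not of single exons.

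Bcl11a is known in several splice forms that differ in how many of the zinc fingers they carry. The longest, Bcl11a-202, has 2505 coding bases (835 codons, with 6 matches to a C2H2 zinc finger pattern) and was at 8.54 TPM in replicate 1 and 8.45 TPM in replicate 2. Bcl11a-201 has 2319 coding bases (773 codons, 3 matches) and was at 6.21 and 6.95 TPM. The transcript with the most TPM was a short one, Bcl11a-204, with 573 coding bases (191 codons, 1 match), at 23.3 and 22.6 TPM, or 51.9% and 50.5% of the gene. By expected counts Bcl11a-202 led with 36.2% and 35.3%, and Bcl11a-204 held 23.5% and 22.5%. The retained intron transcript Bcl11a-205 held 26.3% and 27.6% of the counts and 14.6 ± 0.684% of the TPM (SD, n = 2). Posterior SDs deposited for the counts of Bcl11a-204 were 26.8 on 1068 counts and 25.8 on 961 counts, small beside the difference from Bcl11a-202 (1643 and 1505 counts).

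The sequences below show where these forms part, with each transcript read 5′ to 3′ on the plus strand of chromosome 11 from GENCODE M21 transcripts. Bcl11a-202 and Bcl11a-204 share the fourth exon up to chr11:24163288; the capitals are what follows, either the rest of that exon or the exon that starts at 24172699. Bcl11a-201 uses the same last exon after reading the fourth exon up to 24164888, so its capitals equal those of Bcl11a-204.
Bcl11a-202: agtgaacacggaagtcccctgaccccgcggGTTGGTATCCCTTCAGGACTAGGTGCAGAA
Bcl11a-201: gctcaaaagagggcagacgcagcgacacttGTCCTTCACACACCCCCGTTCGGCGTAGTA
Bcl11a-204: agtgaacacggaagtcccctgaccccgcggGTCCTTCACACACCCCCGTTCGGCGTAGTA

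The forms also part at the other end. Bcl11a-202 opens with a coding exon at chr11:24078391-24078445, which carries the short N-terminal stretch through which BCL11A is known to bind the NuRD subunit RBBP4, here in capitals. Transcripts with this stretch (Bcl11a-201, Bcl11a-202 and Bcl11a-203) summed to 15.2 and 15.4 TPM, or 33.8% and 34.4% of the gene. Bcl11a-204 begins at its own first exon at 24080670, takes its start codon further on and lacks the stretch. It held more TPM than those 3 transcripts together, but fewer expected counts, with 23.5% and 22.5% of the gene's counts beside their 50.1% and 49.9%.
Bcl11a-202, first coding exon: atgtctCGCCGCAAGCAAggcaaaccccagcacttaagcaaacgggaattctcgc

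The 2 main transcripts of Zbtb7a encode the same 569 codons, with 3 matches to the zinc finger pattern, and differ only outside the coding region. Zbtb7a-203 was at 45.2 and 47.3 TPM (72.7% and 74.5% of the gene) and Zbtb7a-201 at 14.7 TPM in both libraries. The order turned round in expected counts, where Zbtb7a-201 held 51.3% and 50.4%. Zbtb7a-203 is annotated to end 8 bases after its stop codon, whereas Zbtb7a-201 runs on for 3787 bases.

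With M21, most of the TPM of complete coding Sox6 transcripts was assigned to a pair of starts far apart in the gene. Sox6-210 starts at chr7:116031047 and was at 4.98 and 5.68 TPM. Sox6-203 and Sox6-212 start at 115846105 and 115846140 and summed to 6.25 and 6.54 TPM, which is 55.7% and 53.5% of the complete coding TPM of these starts. Sox6-205, from a start at 115824710, was at 0.18 and 0.08 TPM, and Sox6-204, from 116038744, was listed at 0 with M21 and was at 4.70 and 5.80 TPM with M4. The order of the starts depended on the unit, since by expected counts the internal pair held 20.9% and 20.8% of the gene and Sox6-210 held 51.7% and 56.5%. How reads were divided between Sox6-203 (1.07 and 4.00 TPM) and Sox6-212 (5.18 and 2.54 TPM) was not stable, with posterior SDs of 71.2 to 81.8 counts, and those transcripts differ by 1 codon.

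The 250 bases before the RefSeq start of the internal Sox6 messages and of Zbtb7a are printed because both hold letters that the red cell activators Gata1 and Klf1 are known to bind. A Chd4 window, chr6:125095731-125095980, also holds both kinds of letters and is not printed. They come from RefSeq on GRCm38.p6, and capitals mark matches on either strand to AGATAA, the usual Gata1 site, and to CCNCNCCC, a CACCC-type site in which N is any base, overlapping matches included. Among 32851 RefSeq promoters of this length 9.99% held AGATAA and 45.9% held CCNCNCCC. Mbd2 was left out when promoters of the 10 genes were selected, so whether its promoters hold either match is not given. The other 9 genes had 15 promoters, of which 3 held AGATAA (1 each of Sox6, Zbtb7a and Chd4) and 10 held CCNCNCCC. The Sox6 window is chr7:115846141-115846390 on the minus strand, with 1 match to each. Its last bases, most of the CCNCNCCC match among them, lie in the first exon of Sox6-216, an annotated retained intron transcript. The Zbtb7a window is chr10:81136021-81136270 on the plus strand, with 2 matches to AGATAA and 7 to CCNCNCCC. It is 78% G or C, against 41.6% for the Sox6 window. It ends at the start of Zbtb7a-201 (81136271), whereas Zbtb7a-203, with more TPM, starts further on at 81136549. A match says only that the letters are there.
Sox6, internal start: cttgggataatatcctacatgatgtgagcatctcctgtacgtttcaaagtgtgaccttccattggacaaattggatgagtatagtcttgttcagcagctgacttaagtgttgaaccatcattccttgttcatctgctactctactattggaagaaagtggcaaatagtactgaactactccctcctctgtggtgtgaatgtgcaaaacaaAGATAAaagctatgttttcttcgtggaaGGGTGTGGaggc
Zbtb7a: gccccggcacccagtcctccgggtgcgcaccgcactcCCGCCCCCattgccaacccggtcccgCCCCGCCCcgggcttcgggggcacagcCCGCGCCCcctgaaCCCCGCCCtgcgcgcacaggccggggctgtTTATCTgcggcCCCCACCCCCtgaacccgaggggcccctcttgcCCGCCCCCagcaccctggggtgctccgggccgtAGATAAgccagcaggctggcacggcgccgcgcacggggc

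Klf3 likewise had an upstream start, that of Klf3-201 at chr5:64803388, and an internal one, that of Klf3-202 at 64812339, and both transcripts encode 344 codons with 3 zinc finger matches. In mouse red cells Klf1 is known to activate Klf3, with an internal promoter among its targets. Klf3-201 was at 13.8 and 14.1 TPM and Klf3-202 at 9.56 and 6.57 TPM, so the internal start held 41.0% and 31.8% of the complete coding TPM of these starts. The posterior SD of Klf3-202 was 57.3 on 457 counts in replicate 1 and 52.4 on 291 counts in replicate 2.

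Klf3 represses by recruiting the corepressor CtBP through a short stretch of its N-terminal part. The codons of that stretch are in capitals below, at chr5:64821976-64822032 with their surroundings on the plus strand. Of the 9 Klf3 transcripts, 6 hold all of them, with 79.2% and 74.3% of the gene's TPM, but only Klf3-201 and Klf3-202 among these are complete coding transcripts. Klf3-206 starts downstream of the stretch, holds the 3 zinc finger matches and carried 18.9% and 24.3% of the TPM. Ctbp1 itself was at 234 and 247 TPM and Ctbp2 at 20.2 and 19.3 TPM.
Klf3-201: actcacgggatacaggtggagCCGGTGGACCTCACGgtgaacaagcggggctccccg

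Hbs1l (ENSMUSG00000019977.16, chr10:21295979-21368898, plus strand) was at 74.9 TPM in replicate 1 and 74.6 TPM in replicate 2. Myb (ENSMUSG00000019982.15, chr10:21124935-21160984, minus strand) was at 20.7 and 20.4 TPM, next to 21.6 and 21.4 TPM of Kit, the stem cell factor receptor of progenitors. Hbs1l was 3.62 and 3.66 times Myb. The genes point away from each other with 134994 bases between them. Of 4 annotated genes in that interval, 0 reached 1 TPM, and the next coding genes on either side, Ahi1 and Aldh8a1, were at 5.16 ± 0.0212 and 4.51 ± 0.304 TPM (SD, n = 2). The neighbours Hbs1l and Myb differed in level by a similar factor in both pools, and both stood above the coding genes that flank them. Crebbp and Ep300, the acetyltransferases that Myb binds, were at 10.2 and 9.72 TPM and at 9.89 and 11.2 TPM.

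The leading Myb transcript was Myb-203, at 14.1 and 15.3 TPM, or 68.0% and 75.2% of the gene, and it also led by expected counts with 73.1% and 79.5%. Myb-201 was at 5.10 and 3.79 TPM, or 24.7% and 18.6%. The posterior SDs of both transcripts, 42.2 to 46.6 counts, are small beside the 1650 and 1663 counts of Myb-203 and the 495 and 341 counts of Myb-201. Myb-203 has 755 codons and Myb-201 has 636 codons, and the 119 codons by which they differ come from an exon of 357 bases at chr10:21144969-21145325. Alternative splicing is known to make a longer c-Myb protein beside the usual one. The transcripts also differ at their 5′ and 3′ ends, so the share of Myb-203 is not a direct measure of that exon. The sequences, 5′ to 3′ on the minus strand, share the exon that ends at 21146186 and part in the capitals.
Myb-203: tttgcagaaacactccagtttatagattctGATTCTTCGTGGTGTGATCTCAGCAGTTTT
Myb-201: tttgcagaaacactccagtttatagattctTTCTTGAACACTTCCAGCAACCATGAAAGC

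Hbs1l encodes a GTPase that works with Pelo to free stalled ribosomes. The full-length transcripts Hbs1l-209 (682 codons) and Hbs1l-201 (679 codons) were at 44.7 and 44.3 TPM and at 12.1 and 12.6 TPM, together 75.8% and 76.3% of the gene. Hbs1l-209 is absent from M4, where Hbs1l-201 was at 58.6 and 58.7 TPM. A different message, Hbs1l-203, shares the first 4 exons up to chr10:21307779 and then ends in an exon of its own that starts at 21309099; it has 612 codons and was at 9.11 and 8.88 TPM, or 12.2% and 11.9%. In human a short HBS1L form of this build is known to join the RNA exosome to the SKI complex. The capitals show the 3 ways on from the shared exon, and Hbs1l-201 skips the first 9 bases that Hbs1l-209 uses.
Hbs1l-209: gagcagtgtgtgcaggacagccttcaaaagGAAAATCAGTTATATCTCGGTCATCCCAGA
Hbs1l-201: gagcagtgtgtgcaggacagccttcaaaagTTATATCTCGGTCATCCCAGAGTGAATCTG
Hbs1l-203: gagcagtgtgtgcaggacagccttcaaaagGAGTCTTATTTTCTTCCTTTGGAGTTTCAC

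All 8 genes listed as partners of Hbs1l in ribosome rescue and in the exosome were at 1 TPM or more, and 6 at 10 TPM or more. Among protein-coding genes 54.3% reached 1 TPM and 32.1% reached 10 TPM. Wdr61 of the SKI complex was at 104 and 107 TPM, and the ribosome recycling factor Abce1 was at 99.8 and 103 TPM. Exosc10 was at 53.8 and 55.1 TPM and the release factor Etf1 at 54.7 and 52.8 TPM. Pelo, the direct partner of Hbs1l, was the lowest at 5.03 and 4.12 TPM, and Hbs1l lay above it in both libraries.

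The orphan receptors were the lowest of the 10 genes. Nr2c2 (ENSMUSG00000005893.14, chr6:92091390-92174294, plus strand) was at 9.78 and 9.89 TPM and Nr2c1 (ENSMUSG00000005897.14, chr10:94148023-94197211, plus strand) at 3.56 and 3.42 TPM, so that Nr2c2 was 2.75 and 2.89 times Nr2c1. Over complete coding transcripts alone they stood closer, at 4.17 and 4.47 TPM for Nr2c2 and 3.55 and 3.42 TPM for Nr2c1. The rest of the Nr2c2 level lay in partial and non-coding transcripts, among them Nr2c2-203 (1.87 and 2.28 TPM), Nr2c2-205 (1.95 and 1.46 TPM) and the retained intron Nr2c2-208 (1.13 and 1.05 TPM). Nr2c2-201, with 596 codons, was the leading transcript at 3.69 and 4.10 TPM and held 68.4% and 73.0% of the counts. The 3 Nr2c1 transcripts encode the same number of coding bases, led by Nr2c1-203 at 2.19 and 2.06 TPM with Nr2c1-201 at 1.16 and 1.31 TPM. Nr2c2 overlaps Mrps25, a mitochondrial ribosomal protein gene on the opposite strand at 58.1 and 58.9 TPM. The sources used here do not give whether counting used strand, so reads in the overlap, and with them the level of Nr2c2, are uncertain. The same holds where Klf3 overlaps Gm20033 on the opposite strand (1.53 and 2.26 TPM). Klf3 also overlaps C230096K16Rik on its own strand (2.94 and 3.22 TPM), where strand could not tell the genes apart. No gene that overlaps the remaining 8 reached 1 TPM.

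The orphan receptors are known to act in a complex with the DNA methyltransferase Dnmt1 and the histone demethylase Kdm1a. All 8 genes listed around that complex were at 1 TPM or more and 5 at 10 TPM or more. Among protein-coding genes 54.3% reached 1 TPM and 32.1% reached 10 TPM. Trim28 was at 171 and 168 TPM, Uhrf1, which guides Dnmt1 to newly made DNA, at 129 and 128 TPM, and Dnmt1 at 81.6 and 84.6 TPM. Nr2c2ap, named as an Nr2c2-associated protein, was at 27.7 and 25.9 TPM, and Kdm1a at 26.3 and 26.6 TPM. Each of these 5 lay above both receptors in both libraries, but they are also the genes of the list that reached 10 TPM. The rest, Rcor3, Rcor1 and Rcor2, averaged 9.48, 7.89 and 3.8 TPM. These means lie below that of Nr2c2 (9.835 TPM) and above that of Nr2c1 (3.49 TPM).

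Chd4 (ENSMUSG00000063870.12, chr6:125095981-125130591, plus strand), the ATPase of NuRD, was at 32.1 TPM in replicate 1 and 33.9 TPM in replicate 2. Chd4 was read mostly as a pair of long transcripts, Chd4-202 (14.4 and 13.3 TPM) and Chd4-203 (11.3 and 13.1 TPM), and the 3 complete coding ones summed to 27.8 and 26.5 TPM. Inside the coding region Chd4-202 has 21 bases (7 codons) and 39 bases (13 codons) that Chd4-203 lacks, each at the start of an exon. These extra bases are in capitals, with flanking bases at chr6:125100575-125100589 and 125100778-125100813 for the first and at 125102284-125102298 and 125102432-125102485 for the second. In replicate 1 Chd4-202 and Chd4-203 had 3032 and 2422 counts with posterior SDs of 202 and 282, and in replicate 2 they had 2596 and 2602 counts with posterior SDs of 177 and 202, so that their order by counts differed between the libraries. Chd4-201 was at 2.05 TPM in replicate 1 and 0 in replicate 2, and Chd4-208 at 0 in replicate 1 and 3.63 TPM in replicate 2.
Chd4-202, first extra stretch: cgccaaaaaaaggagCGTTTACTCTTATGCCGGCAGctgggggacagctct
Chd4-202, second extra stretch: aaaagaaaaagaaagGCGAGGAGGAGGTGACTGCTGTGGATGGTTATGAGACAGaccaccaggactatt

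Of the 15 NuRD genes listed, 14 were at 1 TPM or more, 11 at 10 TPM or more and 5 at 100 TPM or more, with a median of 53.0 ± 3.55 TPM (SD, n = 2), against 1.81 ± 0.0177 TPM over all protein-coding genes. Of the 22028 protein-coding genes, 54.3% reached 1 TPM, 32.1% reached 10 TPM and 1186 genes reached 100 TPM. The histone-binding subunits Rbbp4 and Rbbp7 were at 245 and 256 TPM and at 247 and 241 TPM. The deacetylase Hdac1 was at 122 and 117 TPM, Mta2 at 117 and 115 TPM, and Mbd3 at 117 and 112 TPM. Chd4, and Mbd2 at 10.4 and 11.7 TPM, were below these 5 subunits in both libraries, on a scale that corrects for length. But these 5 were named as the subunits at 100 TPM or more, which none of the 10 genes reached. Cdk2ap1, Gatad2a, Hdac2 and Mta3 also averaged more than Chd4 and Mbd2. Mta1, Gatad2b and Chd3 averaged less than both, at 6.2, 4.7 and 4.6 TPM. Chd5, an ATPase known from neurons, was at 0.01 and 0.02 TPM on 3 and 4 counts.

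Mbd2 (ENSMUSG00000024513.16, chr18:70568189-70626131, plus strand) encodes the NuRD subunit that binds methylated CpG sites. Mbd2-201, the complete coding transcript with the most TPM, was at 7.36 and 8.59 TPM, or 70.6% and 73.2% of the gene, and held 91.5% and 91.4% of the counts. The retained intron transcript Mbd2-204 was at 2.82 and 2.60 TPM on 36.3 and 31.1 counts. Its posterior SDs were 11.3 and 10.4 counts.

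Of the listed corepressors of the zinc finger factors, 10 of 10 reached 1 TPM, against 54.3% of protein-coding genes. At 10 TPM or more were 8 of 10, against 32.1% of protein-coding genes. After Ctbp1 came Ncor1 at 93.7 and 90.6 TPM, Sin3b at 67.1 and 61.1 TPM and Hdac3 at 47.8 and 44.5 TPM. Of 15 genes known to act on Bcl11a or on globin from upstream, all 15 reached 1 TPM and 11 reached 10 TPM. The shares of protein-coding genes beside these are again 54.3% and 32.1%. Klf1, which activates Bcl11a as well as adult beta globin, was at 463 and 433 TPM. Gata1 was at 131 and 124 TPM, 2.91 and 2.77 times Bcl11a. Atf4 was at 118 and 121 TPM and the arginine methyltransferase Prmt5 at 51.2 and 50.7 TPM. Bcl11a lay below all 4 of these in both libraries, but they were named as the 4 highest of the list. Every other gene of the list averaged less than Bcl11a, from Ldb1 at 44.8 and 44.5 TPM down to Nfix at 2.39 and 2.40 TPM.

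Paralogues, which share ancestry and in part function with the 10 genes, were compared in 15 pairs. The member was higher in both libraries in 10 of 15 pairs, and this count was the same with M4, with complete coding transcripts alone and with merged exons. Bcl11b, the T cell relative of Bcl11a, was at 0.25 and 0.26 TPM, a log2 ratio of Bcl11a over it of 7.46 ± 0.0421 (SD, n = 2). Zbtb7a, at 62.1 and 63.6 TPM, stood against 1.38 and 0.99 TPM of Zbtb7b and 0.81 and 0.59 TPM of Zbtb7c. The other SoxD genes were Sox5 at 5.16 and 4.96 TPM and Sox13 at 2.89 and 3.07 TPM. The log2 ratio of Sox6 was 3.25 over Sox5 and 4.02 over Sox13 in M21 gene TPM, and 2.95 over Sox5 and 2.35 over Sox13 over complete coding transcripts. Chd4, at 32.1 and 33.9 TPM, stood against 3.94 and 5.31 TPM of Chd3.

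The member was lower in the other 5 pairs. The log2 ratio of Mbd2 over Mbd3, which unlike Mbd2 does not bind methylated DNA well in mammals, was -3.37 ± 0.170 (SD, n = 2). That of Myb over Mybl2, a cell cycle regulator at 60.2 and 60.9 TPM, was -1.56 ± 0.0280, while Mybl1 was at 0.59 and 0.39 TPM. Hbs1l over Gspt1, its release factor relative at 86.4 and 86.2 TPM, gave -0.21 ± 0.00250. Klf3 over Klf1 gave -2.45 ± 0.211 in gene TPM and -4.35 over complete coding transcripts. The remaining pair is Nr2c1 below Nr2c2.

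**Figure D4:**
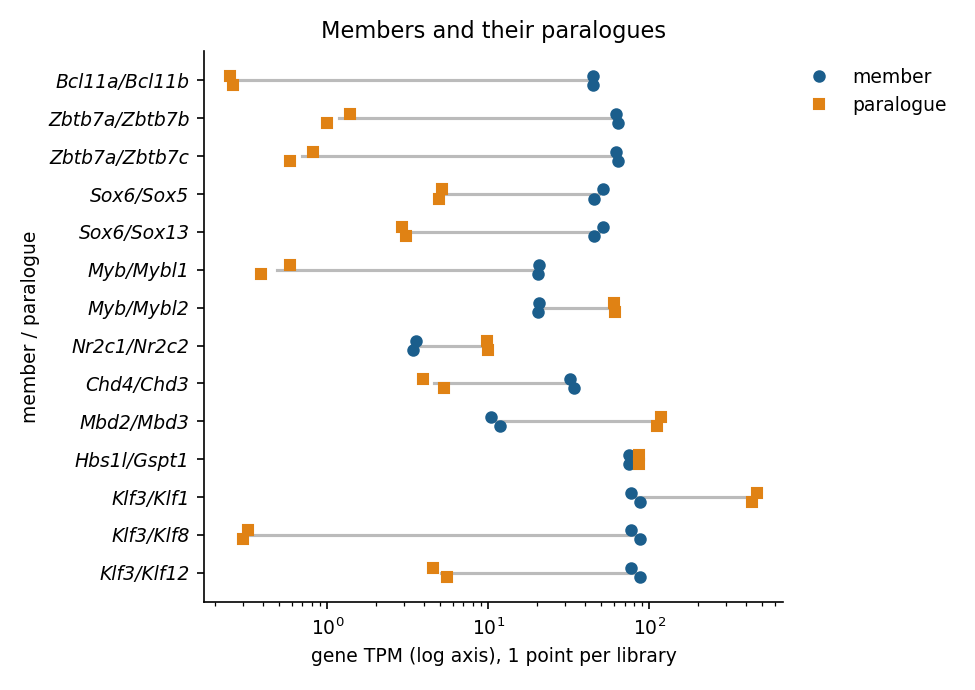
Gene TPM (log axis) of the members (circles) and of their paralogues (squares), 1 point per library, for 14 of the 15 pairs; Chd5, at 3 and 4 counts, is left out. Paralogues of Bcl11a, Zbtb7a and Sox6 lie to the left of the member, and Mybl2, Nr2c2, Mbd3, Gspt1 and Klf1 lie to the right.

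By M21 gene TPM Klf3 was second of the 17 KLF genes, of which 12 reached 1 TPM and 6 reached 10 TPM. Those counts stand beside 54.3% and 32.1% of protein-coding genes. Klf6 and Klf16 came next at 22.0 and 20.6 TPM and at 20.7 and 20.0 TPM. Klf8 and Klf12, which with Klf3 form the CtBP-binding group of the family, were at 0.32 and 0.30 TPM and at 4.53 and 5.56 TPM. Klf17 was at 0.03 TPM in both libraries. Over complete coding transcripts Klf3 was at 22.0 ± 1.88 TPM (SD, n = 2) and stood 2.99 log2 units above Klf12 and 6.15 above Klf8. Klf6 and Klf16 were not compared with Klf3 on that measure, so its lead over them rests on gene TPM.

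The 2 pools gave much the same counts of the 10 genes. After TMM scaling 0 of 10 passed 2-fold between replicate 1 and replicate 2, against 2.35% of 17343 genes with a mean expected count of 10 or more. All 10 had 320 counts or more in each library, and among 12047 genes with a mean of 100 or more only 0.149% passed. An exact binomial interval for how the counts split between pools left out equality for 2 of 10, against 22.5% of the 17343 genes. Mbd2 had 487 counts in replicate 1 and 527 in replicate 2, a log2 ratio of -0.23 (95% interval -0.41 to -0.05). Chd4 had 6019 and 5333 counts, a log2 ratio of 0.06 (0.01 to 0.12). For the other 8 genes the ratio lay within -0.07 and 0.06. Intervals cover counting error only, and reads amplified by PCR are not independent molecules. Scaling by spike-ins moved the median log2 ratio of all genes to 0.12 and the number of the 10 genes with an interval apart from equality to 6, against 42.5% of all genes tested. Under that scaling the ratios ran between -0.11 and 0.18, those of Bcl11a, Zbtb7a, Sox6, Myb, Nr2c2 and Klf3 turned positive, and the interval of Mbd2 took in equality. Such a comparison is between libraries and not between conditions.

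**Figure D5:**
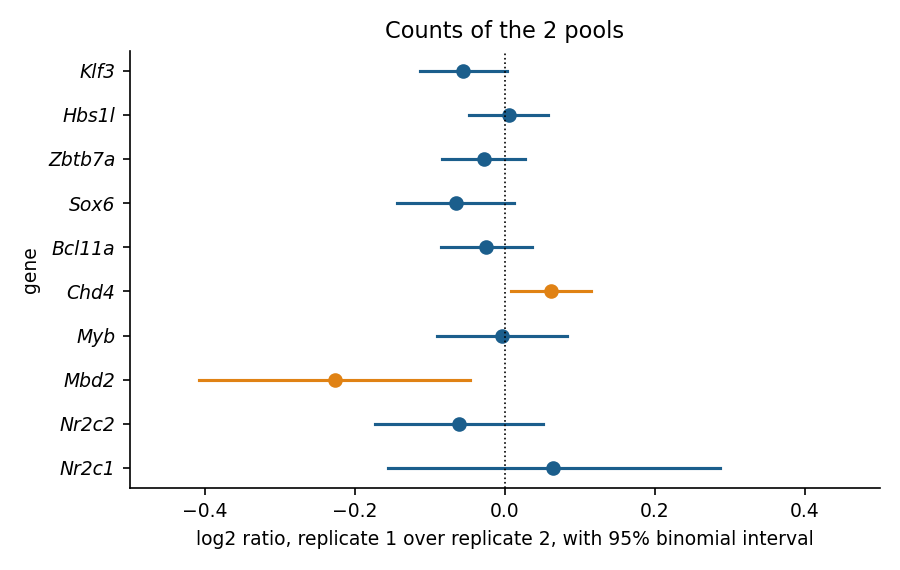
log2 ratio of TMM-scaled expected counts, replicate 1 over replicate 2, with exact 95% binomial intervals as lines; orange marks intervals that leave out 0 (dotted line). Mbd2 at -0.23 and Chd4 at 0.06 are the genes so marked, and no ratio reaches 0.5 in size.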

How the data were processed

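The expected counts, TPM, posterior mean TPM, posterior SD scores and TPM bounds of each gene and transcript are as deposited by the authors, 1 set per library and annotation. Expected counts are reads divided among features by estimation and need not be whole, per the file headers. The authors' TPM values divide them by effective length (another deposited column), per the file headers. Assembly mm10 and GENCODE M21 or M4 are per the notes deposited with the files; the quantifier, its version and any use of strand were not given in the sources used here. The labels call the pools biological replicates.

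Spike-ins and entries with bare numbers (at most 0.000142% of counts) were left out of gene totals. TPM was averaged over 2 libraries. The pools were scaled with TMM (edgeR 4.0.16, prior count 0.5) and compared for genes with a mean of 10 counts; the exact Clopper-Pearson 95% interval of the split of rounded counts was used, with no test of conditions. Annotations were compared as log2((TPM + 1)/(TPM + 1)) at 1.5-fold in both libraries. The ratio code was tested on simulated data. Classes follow GENCODE transcript types. All members and paralogues, the 4 highest genes of each list, up to 2 under 1 TPM, the 2 highest markers and transcripts at 10% were named, with a few others chosen after their values were seen. Members and lists were chosen with earlier results of these data known.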

Additional observations from a re-analysis of the deposited data

How the results depend on the processing

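The median level of the 10 genes, 38.9 TPM, was 41.0 TPM rescaled without spike-ins and 27.4 TPM with M4. In measures chosen after seeing the data it was 20.6 TPM over complete coding transcripts and 17.4 over merged exons. The former leaves out incomplete and non-coding transcripts by construction, while short complete ones keep their weight. The latter gives shorter and partial transcripts less weight by construction. The 1 gene past 1.5-fold between annotations became 2 (Sox6 and Klf3) without replicate 1, so the count ran from 1 to 2 when a library was left out. At 25% in place of 10%, 2 of 10 genes in place of 10 had several main transcripts, with no share over all genes given at 25%. The median leading share, 55.4%, was 54.4% by posterior mean, 59.1% by counts and 68.9% with M4. Between the pools, spike-in scaling turned the sign of 6 of the 10 log2 ratios and DESeq2 size factors that of 1 (Myb), and intervals apart from equality numbered 4 with M4 in place of 2. No ratio of a gene to its paralogue changed sign, and 44 summary values under other settings stayed within their limits while 9 moved. Among single values 161 stayed and 84 moved. No paired analysis was possible because the series holds 1 group. With 2 libraries, a spread is known only roughly, and Nr2c1 and Mbd2 rest on 320 to 527 counts.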
